A study of Mus musculus with 12 samples.

Results

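Brown adipose tissue of mice carrying a SIRT1 transgene (SIRT1tg) was compared with that of wild-type mice (WT) on 6 arrays, 3 per genotype, of the 12 arrays of the series. The 12 array columns carry numbers that fall into 2 separate ranges, and the 6 arrays were taken by column number alone, as those of the higher range. No source used here says what the column number records. Every mouse was 3 months old and on the C57Bl/6N background. The WT mice are labelled wild type and the SIRT1tg mice SIRT1Tg/Tg, which denotes the transgene on both chromosomes, and no treatment is named for either group. The promoter of the transgene, the number of founder lines, the sex of the mice and any pooling of animals are not given in the sources used here. Total RNA of the whole tissue had been labelled with biotin and hybridised to Illumina bead arrays. Within each genotype the arrays are called 1, 2 and 3 in ascending column number, which is a name only, and 3 values in a row are always given in that order.

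SIRT1 is a protein deacetylase that consumes NAD+ and acts on histones and on transcription regulators, among them PGC-1α, FOXO proteins and p53. Brown adipose tissue burns fatty acids, and its mitochondria release the energy as heat through the uncoupling protein UCP1. The tissue holds brown adipocytes together with a dense capillary bed, fibroblasts, macrophages and nerve endings, so that in whole-tissue RNA a difference in the number of cells of one type and a difference in RNA per cell cannot be told apart.

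All values below are normalised log2 signals, and all differences are SIRT1tg minus WT on that log2 scale, where 1 stands for a doubling of the signal. A single value in brackets after the signals or the name of a gene is its difference. Each array carried 25697 probes, of which 11221 to 12108 (43.7% to 47.1%) exceeded the negative control beads on a given array. The log2 signals of any 2 of the 6 arrays correlated at 0.970 to 0.989 across genes (Pearson), and pairs within a genotype (0.977 to 0.989) and between genotypes (0.970 to 0.986) covered much the same range. The tissue showed the defining genes of brown fat at the top of the scale. Ucp1 lay between 12.81 and 13.66 and Cidea, a lipid droplet protein abundant in brown fat, between 13.62 and 13.82. The brown-fat regulator Prdm16 was detected on 0 of 6 arrays and the thyroid hormone deiodinase Dio2 on 1 of 6. The Y-linked gene Eif2s3y was detected on all 6 arrays and the probes of Xist on none.

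Of 8191 genes tested, 4 passed an adjusted p of 0.05 (limma with Benjamini-Hochberg adjustment over all genes), which is 0.0488%. Sirt1, Ccnl1 and Gramd1b rose (0.0366%) and Sfxn1 fell (0.0122%). Much more of the data separated the genotypes without passing that test: all 3 SIRT1tg arrays lay above all 3 WT arrays for 802 genes (9.79%) and below them for 965 genes (11.8%). Such genes are called separated from here on, and the shares of 9.79% and 11.8% are the background against which every gene group is read. Most differences were small. The median absolute difference was 0.15, the 90th percentile 0.44 and the 99th percentile 0.89, and the median of all signed differences was -0.02. A separated difference of at least 2-fold was found for 23 genes in the higher direction (0.281%) and 17 in the lower (0.208%). At an unadjusted p under 0.05, 1290 genes (15.7%) passed, 644 higher (7.86%) and 646 lower (7.89%). An exact two-sided permutation test of 3 against 3 arrays cannot give a p below 0.1, which it gave for each of the 4 genes that passed. That p of 0.1 is also the probability that a gene without a genotype difference is separated in either direction. A share of 0.1 of such genes would thus separate by chance, beside the 21.6% (1767 genes) found in either direction. Separation of a single gene is therefore not by itself evidence of a genotype difference. Nothing in the labels states that each array came from a different animal, and the p-values therefore reflect the spread of these samples, which may be technical.

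**Figure D1:**
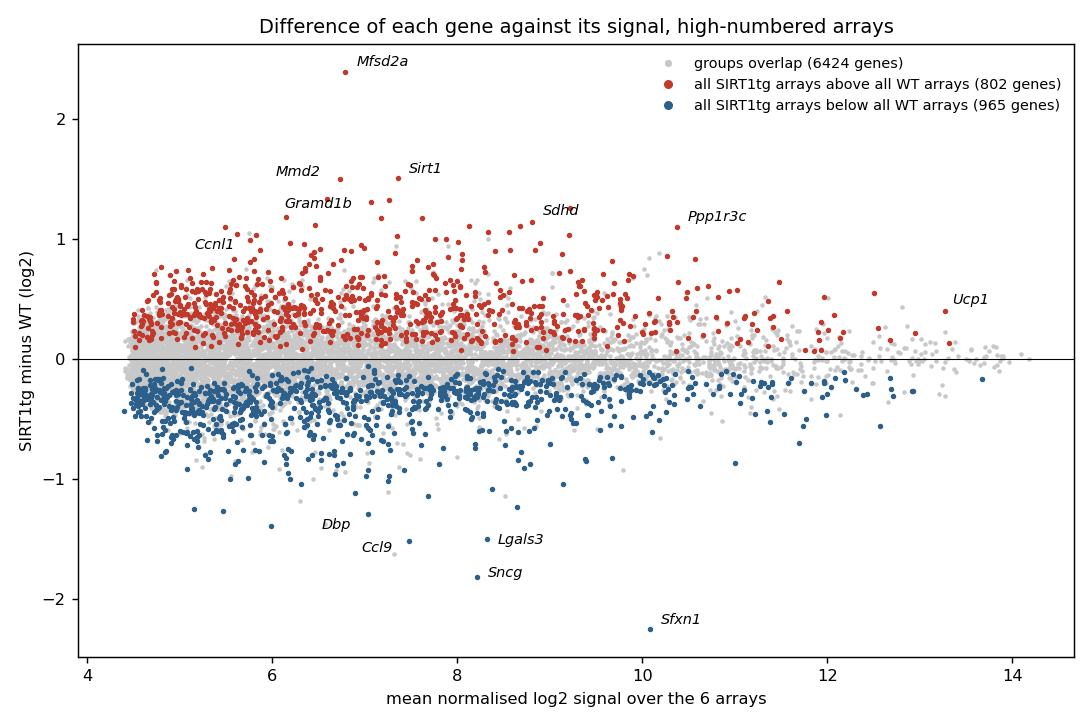
Each point is 1 of 8191 genes, with its mean normalised log2 signal over the 6 high-numbered arrays on the x axis and the SIRT1tg minus WT difference (log2) on the y axis. Genes whose arrays separate by genotype (802 higher in red, 965 lower in blue) lie at every signal level, and most of them differ by less than 0.5, while Mfsd2a, Sirt1 and Mmd2 at the top and Sfxn1 and Sncg at the bottom stand away from the cloud.

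Sirt1, the gene that was overexpressed, checks the labels. Its signal was 8.24, 7.95 and 8.16 on the SIRT1tg arrays and 6.42, 6.72 and 6.69 on the WT arrays. The lowest SIRT1tg array lay more than 1 log2 unit above the highest WT array. The difference was 1.51 ± 0.14 (SE), a 2.84-fold higher signal, with an adjusted p of 0.00781 (limma). The files do not say whether the probe reads the transgene, the mouse gene's own transcript or both. The call was lost when SIRT1tg array 1 (1.45, adjusted p = 0.0811) or SIRT1tg array 3 (1.48, adjusted p = 0.0610) was left out, in each case with a difference close to that of all 6 arrays.

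Sfxn1, a serine transporter of the inner mitochondrial membrane that feeds one-carbon metabolism, fell further than any other gene. Its signal was 8.66, 9.21 and 9.0 on the SIRT1tg arrays and 11.42, 11.09 and 11.10 on the WT arrays. The arrays of each genotype kept within 0.6 of each other and the groups lay more than 1.8 apart. It fell by 2.25 ± 0.17 (SE; adjusted p = 0.00289, limma), the smallest adjusted p of the comparison, and a further probe of the gene gave -2.55. The call held in each of the 6 fits that left out 1 array.

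Ccnl1 encodes cyclin L1, a partner of cyclin-dependent kinases in the regulation of splicing. Its signal was 6.37, 6.43 and 6.24 on the SIRT1tg arrays and 5.33, 5.39 and 5.20 on the WT arrays, a difference of 1.04 ± 0.12 (SE; adjusted p = 0.0344, limma). The spread within each genotype, about 0.2, was the smallest among the 4 genes. Gramd1b (Aster-B), which carries cholesterol from the plasma membrane to the endoplasmic reticulum, stood at 7.91, 7.63 and 7.63 on the SIRT1tg arrays and 6.50, 6.14 and 6.61 on the WT arrays. The difference was 1.31 ± 0.16 (SE; adjusted p = 0.0361, limma), and WT array 2 was the lowest of the 6. Both genes kept their call in fewer fits than Sfxn1: Ccnl1 lost it without SIRT1tg array 1, 2 or 3 or WT array 2 or 3, and Gramd1b without SIRT1tg array 1, 2 or 3 or WT array 2.

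**Figure D2:**
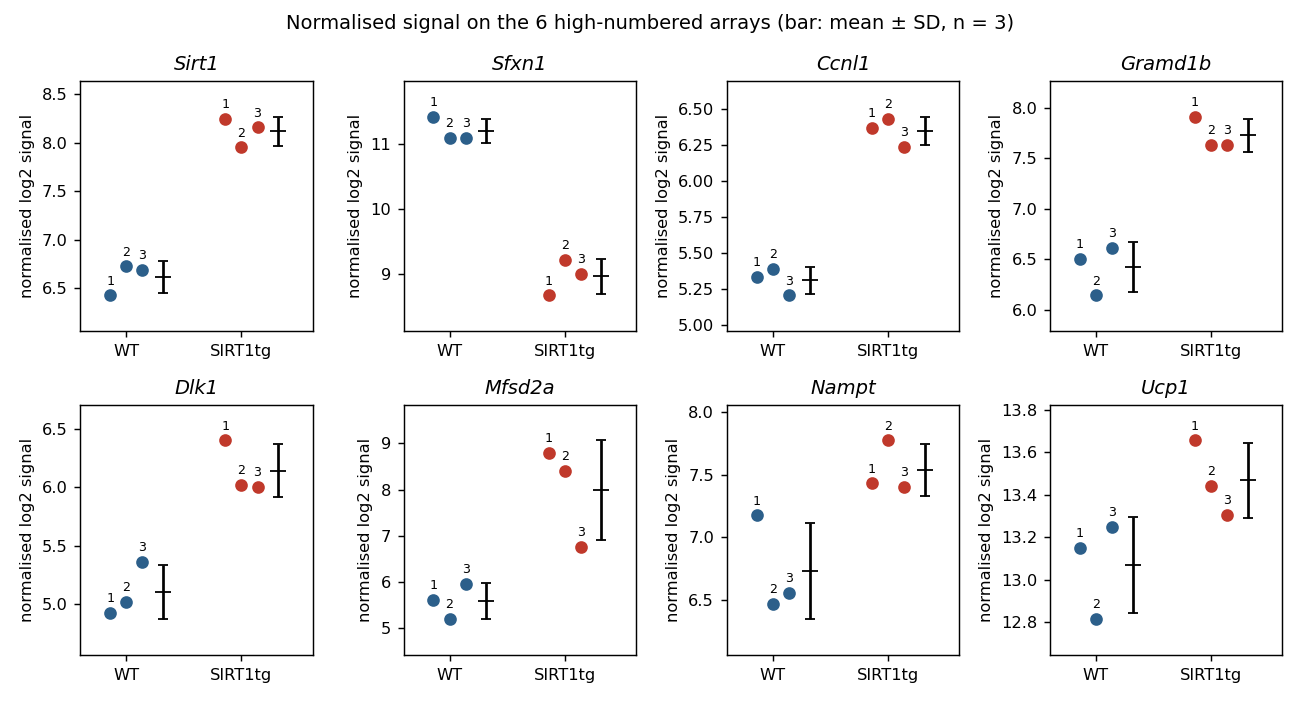
Normalised log2 signal (y axis) of 8 genes on the 3 WT (blue) and 3 SIRT1tg (red) high-numbered arrays, numbered 1 to 3, with the mean ± SD of each genotype (n = 3) as a black bar. Every gene shown is separated by genotype, with wide gaps for Sirt1, Sfxn1, Ccnl1 and Gramd1b, while Ucp1 has WT array 3 (13.25) just below SIRT1tg array 3 (13.30).

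Among the separated genes with higher signals, Mfsd2a differed most. It encodes the transporter of lysophosphatidylcholine-bound docosahexaenoic acid and is induced by fasting in mouse liver and brown fat. Its signal was 8.79, 8.41 and 6.76 on the SIRT1tg arrays and 5.62, 5.20 and 5.97 on the WT arrays. SIRT1tg array 3 was nearer to the WT arrays than to the other SIRT1tg arrays, and the difference of 2.39 ± 0.46 (SE) had an adjusted p of 0.152 (limma).

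Pon1, Pla2g7 and Ppp1r3c were also among the largest separated higher values. Pon1, the paraoxonase carried on high-density lipoprotein, was at 7.57, 6.66 and 7.55 on the SIRT1tg arrays and 6.02, 5.94 and 5.83 on the WT arrays (1.33). Pla2g7, a phospholipase that breaks down platelet-activating factor and oxidised phospholipids, was at 7.14, 7.11 and 6.83 on the SIRT1tg arrays and 6.61, 5.70 and 5.42 on the WT arrays (1.12). Ppp1r3c, which brings protein phosphatase 1 to glycogen and so promotes glycogen synthesis, was at 11.39, 10.69 and 10.69 on the SIRT1tg arrays and 10.16, 9.24 and 10.06 on the WT arrays (1.10). In Pon1 the 3 WT arrays lay within 0.2 of each other, whereas in Pla2g7 WT array 1 stood well above the other WT arrays. Ppp1r3c was among the brighter genes with a 2-fold difference, with WT array 2 the lowest. Adjusted p-values of these 3 genes were 0.152, 0.177 and 0.177 (limma).

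Mmd2, Slc25a34, Car14, Zxda and Erich5 were further genes of that set. Mmd2, a membrane protein of the progestin and adipoQ receptor family, stood at 7.97, 7.51 and 6.98 on the SIRT1tg arrays and 6.51, 5.23 and 6.23 on the WT arrays (1.5). Slc25a34, a member of the mitochondrial carrier family, stood at 7.98, 7.88 and 7.90 on the SIRT1tg arrays and 7.14, 5.66 and 7.0 on the WT arrays (1.33). In both genes WT array 2 was about 1 or more below the other WT arrays, and a dimmer second probe of Slc25a34 gave 0.08. Car14, a membrane-bound carbonic anhydrase, was at 6.90, 6.47 and 6.87 on the SIRT1tg arrays and 5.14, 5.24 and 6.31 on the WT arrays (1.18), with WT array 3 about 1 above the other WT arrays. Zxda, a zinc finger protein, differed by 1.18 and Erich5 by 1.11, both with WT array 3 the lowest of the 6 arrays.

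Apart from Sfxn1, the largest separated lower value was that of Sncg. Sncg, γ-synuclein, which is abundant in white adipocytes, was at 6.09, 8.06 and 7.76 on the SIRT1tg arrays and 9.47, 9.50 and 8.4 on the WT arrays (-1.82). SIRT1tg array 1 was about 1.7 below the next SIRT1tg array, and WT array 3 was only 0.3 above the highest of them. Lgals3, the lectin galectin-3 of macrophages, was at 7.28, 8.09 and 7.34 on the SIRT1tg arrays and 10.30, 8.67 and 8.23 on the WT arrays (-1.50), and the chemokine Ccl9 at 7.04, 6.77 and 6.34 on the SIRT1tg arrays and 9.66, 7.87 and 7.18 on the WT arrays (-1.51). In both, WT array 1 was more than 1.5 above the other WT arrays. Ubd, a ubiquitin-like modifier induced by inflammatory cytokines, was at 5.17, 5.27 and 5.44 on the SIRT1tg arrays and 7.27, 6.95 and 5.83 on the WT arrays (-1.39), here with WT array 3 close to the SIRT1tg arrays. Of the remaining genes in this set, Ccn5, a matricellular protein, differed by -1.25, Ccdc80, a secreted matrix-binding protein, by -1.23, the complement genes C1qb and C4b by -1.14 and -1.12, and podoplanin (Pdpn) by -1.04. Hilpda, an inhibitor of the lipase ATGL found on lipid droplets, was at 7.93, 8.81 and 9.15 on the SIRT1tg arrays and 9.69, 9.76 and 9.55 on the WT arrays (-1.04, and -1.04 with a second probe). Npr3, the receptor that clears natriuretic peptides, was lower by -1.01 on the log2 scale. None of the lower genes in this paragraph passed the adjusted threshold, their adjusted p lying between 0.152 and 0.236 (limma).

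Genes of NAD+ metabolism and the sirtuins were mixed. Of 15 measured, 3 were separated in the higher direction (Sirt1, Nampt and Sirt7) and 2 in the lower (Nadk and Parp1), with a median of 0.02. Nampt, which limits the rate of NAD+ salvage, stood at 7.43, 7.78 and 7.41 on the SIRT1tg arrays and 7.18, 6.47 and 6.55 on the WT arrays. WT array 1 came within 0.3 of the SIRT1tg arrays while the other WT arrays lay near 6.5, and the difference was 0.81 ± 0.20 (SE; adjusted p = 0.177, limma). A second, dimmer probe gave 0.55. Parp1, a poly(ADP-ribose) polymerase and so a consumer of NAD+, was at 8.94, 8.89 and 8.97 on the SIRT1tg arrays and 9.11, 9.27 and 9.26 on the WT arrays (-0.28), and Nadk, which phosphorylates NAD+ to NADP+, was at 10.65, 10.64 and 10.54 on the SIRT1tg arrays and 10.86, 10.93 and 10.93 on the WT arrays (-0.29). Both differences were small and both genes varied by less than 0.2 within a genotype. Among sideroflexins and one-carbon genes, 2 of 14 were separated higher and 2 lower, Sfxn1 included. Sfxn5, a further sideroflexin, differed by 0.30 in the direction opposite to Sfxn1.

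In the list of brown-fat identity and thermogenesis, 7 of 23 genes (30.4% of the list) were separated, all in the higher direction, with a median of 0.10 that moved between 0.06 (without WT array 1) and 0.20 (without WT array 3). Ppargc1a, the coactivator PGC-1α that drives mitochondrial gene expression and is itself a target of SIRT1 deacetylation, was at 9.14, 8.34 and 8.50 on the SIRT1tg arrays and 7.80, 7.87 and 8.14 on the WT arrays. SIRT1tg array 1 was well above the rest, and the difference was 0.72 ± 0.21 (SE; adjusted p = 0.189, limma). Ucp1 was at 13.66, 13.44 and 13.30 on the SIRT1tg arrays and 13.15, 12.81 and 13.25 on the WT arrays, a difference of 0.40 ± 0.15 (SE; adjusted p = 0.267, limma). The nearest arrays of the 2 genotypes were 0.05 apart. Esrra, the nuclear receptor ERRα that works with PGC-1α, differed by 0.44, Ppargc1b by 0.35 and Cpt1b, which admits fatty acids to mitochondria, by 0.27. Other genes of the fat cell did not separate. Cidea differed by 0.07, the fatty acid elongase Elovl3 by 0.06, the adipocyte hormone Adipoq by 0.27 and the adipogenic receptor Pparg by 0.01, although dimmer probes of Pparg gave 0.41 and 0.71. Among 16 adipocyte transcription factors, 4 were separated higher and 1 lower, among them Klf4 (0.71), Cebpb (0.40) and Klf9 (0.38).

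Dlk1, the preadipocyte factor Pref-1 that restrains adipocyte differentiation, was separated by a wide gap but missed the adjusted threshold. Its signal was 6.40, 6.02 and 6.00 on the SIRT1tg arrays and 4.92, 5.01 and 5.36 on the WT arrays, a difference of 1.04 ± 0.16 (SE; adjusted p = 0.152, limma). Gata2, a transcription factor that also restrains adipogenesis, was at 7.05, 7.03 and 7.24 on the SIRT1tg arrays and 6.56, 6.41 and 6.52 on the WT arrays (0.61). Of the 13 measured genes of progenitors and restraint of differentiation, 4 were separated higher and 2 lower, and 8 of the 13 differences were negative. The median was -0.04, but it was 0.16 without SIRT1tg array 3 and 0.19 when detection on all 6 arrays was required. The list as a whole thus has no settled direction.

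The mitochondrial lists had small positive medians. Among respiratory complex I genes 5 of 33 were separated higher and 2 lower (median 0.08), and in complexes II to V 8 of 40 were higher and 1 lower (median 0.07). Fatty acid oxidation had 4 of 19 higher and 0 lower (median 0.09), and breakdown of branched-chain amino acids had 6 of 19 higher and 0 lower (median 0.12). Mitochondrial ribosomal proteins had 4 of 46 higher and 2 lower (median 0.06), near or below the background in both directions. As single arrays were left out, the medians ranged from 0.03 (without WT array 2) to 0.12 (without WT array 3) for complex I, from 0.04 to 0.08 for complexes II to V, from 0.03 to 0.17 for fatty acid oxidation and from -0.01 to 0.08 for mitochondrial ribosomal proteins, each lowest and highest without the same 2 arrays. For branched-chain amino acids the range was 0.07 (without WT array 1) to 0.24 (without SIRT1tg array 2). When arrays were scaled by their median signal, the median of all genes moved to -0.15, and the medians of these 5 lists, of brown-fat identity, of heat shock proteins and of endothelial genes turned negative with it, though each stayed above that of all genes.

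Single subunits differed by more than these medians. Ndufb2, a subunit of complex I, was at 8.76, 8.69 and 8.58 on the SIRT1tg arrays and 8.34, 7.43 and 6.94 on the WT arrays (1.11), and Sdhd, a membrane anchor of succinate dehydrogenase, at 9.10, 9.69 and 9.36 on the SIRT1tg arrays and 8.94, 8.06 and 7.72 on the WT arrays (1.14). Atp5e, the ε subunit of ATP synthase, was at 8.45, 8.70 and 8.32 on the SIRT1tg arrays and 8.20, 7.27 and 7.08 on the WT arrays (0.98). In these 3 genes WT array 1 lay just below the SIRT1tg arrays while WT arrays 2 and 3 were about 1 or more lower. Ndufb10 (0.87), Uqcrb (0.64), Cycs (0.88) and, from the heat shock and autophagy lists, Hspe1 (0.96) and Map1lc3b (0.91) were also separated with WT array 1 the highest WT array, and a second probe of Cycs gave 0.01. The complex I subunit Ndufa10 was separated the other way, at 12.54, 12.47 and 12.66 on the SIRT1tg arrays and 12.78, 12.78 and 13.02 on the WT arrays (-0.30). On the mean over all 33 complex I genes WT array 1 (0.06) was level with SIRT1tg array 1 (0.06), while WT arrays 2 and 3 stood at -0.16 and -0.17.

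Of the enzymes that break down leucine, isoleucine and valine, Mccc1, a subunit of methylcrotonyl-CoA carboxylase in leucine breakdown, was at 7.75, 8.08 and 7.46 on the SIRT1tg arrays and 6.88, 6.30 and 6.58 on the WT arrays. The groups were far apart for their spread, and the difference was 1.18 ± 0.20 (SE; adjusted p = 0.152, limma). Aldh6a1, the methylmalonate-semialdehyde dehydrogenase of valine breakdown, was at 10.97, 10.97 and 11.04 on the SIRT1tg arrays and 10.61, 10.07 and 9.80 on the WT arrays (0.83). Acadsb, the dehydrogenase of short branched-chain acyl-CoA in isoleucine breakdown, was at 9.27, 9.45 and 9.16 on the SIRT1tg arrays and 8.95, 8.27 and 7.93 on the WT arrays (0.91), and Hsd17b10, which acts in the same pathway, differed by 0.56. Bcat2 (0.12) and Bckdha (-0.14), which act in the first steps of the pathway, were not separated.

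Lists of lipid, sugar and sterol metabolism had separated genes in both directions. Fatty acid and triglyceride synthesis had 1 of 21 genes separated higher and 3 lower (median -0.01). Slc25a1, the mitochondrial citrate exporter that supplies lipid synthesis, was at 11.09, 11.51 and 11.44 on the SIRT1tg arrays and 11.79, 12.38 and 11.98 on the WT arrays (-0.70, and -0.67 with a second probe), and Fads1, a fatty acid desaturase, differed by -0.52. Glucose uptake, glycolysis and glycogen had 3 of 22 higher and 4 lower (median -0.18, and -0.04 without SIRT1tg array 1). Ugp2, which makes UDP-glucose for glycogen, was at 7.69, 8.0 and 7.83 on the SIRT1tg arrays and 8.37, 8.48 and 8.78 on the WT arrays (-0.71), opposite in direction to Ppp1r3c. Sterol synthesis had 1 of 20 higher and 3 lower (median -0.15, and -0.03 without SIRT1tg array 1). Its Insig1, which retains SREBP in the endoplasmic reticulum, differed by -0.40 with the brightest probe and by 0.65 and -0.53 with the others, so that the gene has no settled direction.

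Circadian, glucocorticoid-responsive and heat shock genes follow. Dbp, an output gene of the circadian clock, was at 6.26, 6.27 and 6.66 on the SIRT1tg arrays and 7.19, 8.23 and 7.64 on the WT arrays (-1.29; adjusted p = 0.152, limma). Per2, a repressor of the clock, was at 7.12, 6.70 and 6.76 on the SIRT1tg arrays and 5.89, 5.81 and 6.27 on the WT arrays (0.87), and Nr1d2, which encodes REV-ERBβ, at 6.79, 6.72 and 6.58 on the SIRT1tg arrays and 6.14, 6.34 and 5.85 on the WT arrays (0.59). Dbp was thus lower while Per2 and Nr1d2 were higher, and over the 15 clock genes 3 were separated higher and 1 lower. No source used here states the hour at which tissue was taken. Glucocorticoid-responsive genes had the highest median of any list with at least 5 measured genes, 0.31 (0.20 without WT array 2), with 4 of 15 separated higher and 1 lower. Besides Mfsd2a they included Sgk1, a kinase that regulates ion transport, at 10.51, 10.80 and 10.79 on the SIRT1tg arrays and 9.75, 9.51 and 10.26 on the WT arrays (0.86), and Errfi1, an inhibitor of the EGF receptor, which differed by 0.70. Fkbp5 and Tsc22d3, both strongly induced by glucocorticoids, differed by -0.17 and 0.20 and were not separated. Heat shock proteins had 6 of 22 higher and 0 lower (median 0.11, and 0.07 without SIRT1tg array 1). Hspb1 was at 9.57, 9.56 and 9.77 on the SIRT1tg arrays and 9.10, 8.86 and 9.0 on the WT arrays (0.64) and Hspa8, the constitutive HSP70, differed by 0.55, whereas the stress-induced Hspa1a differed by 0.02.

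Vegfa, the main growth factor of blood vessels and a target of PGC-1α and of hypoxia, was at 10.13, 10.26 and 10.36 on the SIRT1tg arrays and 9.65, 9.57 and 9.46 on the WT arrays (0.69; adjusted p = 0.152, limma), and a second probe gave 0.51. Each genotype spread over about 0.2 and the gap between them was wider than that. Hypoxia-responsive genes as a list had 5 of 15 separated higher and 2 lower (median 0.11, and 0.02 without SIRT1tg array 1). Of 21 endothelial genes 7 were separated, all higher (33.3% of the list, median 0.15). They included Ptprb, a receptor phosphatase of endothelial cells, at 7.86, 8.44 and 8.03 on the SIRT1tg arrays and 7.68, 7.42 and 7.19 on the WT arrays (0.67), and Sox17, a transcription factor of arterial endothelium, at 6.12, 6.10 and 6.37 on the SIRT1tg arrays and 5.55, 5.76 and 5.42 on the WT arrays (0.62). Flt1, the VEGF receptor 1, differed by 0.46 and the endothelial sialomucin Emcn by 0.43. The defining genes Pecam1 (-0.04), Cdh5 (0.13) and Tie1 (0.12) were not separated. The mean signal of the list was 0.07, 0.12 and 0.13 on the SIRT1tg arrays and -0.17, -0.16 and 0.02 on the WT arrays.

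Interferon-stimulated genes had a larger share of separated lower genes than any other pathway list. Of 25 measured genes 11 were separated lower and 0 higher (44% of the list), and 24 of the 25 differences were negative, with a median of -0.43. Ifit3, an antiviral protein of the IFIT family, was at 6.48, 6.55 and 6.71 on the SIRT1tg arrays and 7.85, 7.30 and 7.36 on the WT arrays (-0.92; adjusted p = 0.152, limma). Usp18, the protease that removes ISG15 and damps the interferon receptor, was at 6.05, 6.08 and 6.20 on the SIRT1tg arrays and 6.96, 6.63 and 6.74 on the WT arrays (-0.66). Gbp2, a guanylate-binding protein induced by interferon-γ, was at 7.95, 8.58 and 8.39 on the SIRT1tg arrays and 9.61, 8.97 and 8.67 on the WT arrays (-0.77), and Lgals3bp, a secreted glycoprotein, at 8.67, 9.13 and 9.12 on the SIRT1tg arrays and 9.90, 10.04 and 9.46 on the WT arrays (-0.83). WT array 1 was the highest of the 6 arrays in Ifit3, Usp18 and Gbp2. The other WT arrays also lay above every SIRT1tg array, which holds for any separated gene by definition. Without WT array 1 the median of the list was -0.27. No gene of the list passed the adjusted threshold.

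The upstream sequences of 2 of these genes are shown because many interferon-stimulated genes carry a response element that the transcription factor ISGF3 binds. The core of that element, 2 copies of GAAA with 2 bases between them (GAAANNGAAA), was searched on both strands of the 250 bases before the transcription start in the RefSeq promoter table (GRCm38.p6). The match, in capitals, reads on the opposite strand in both genes. The window of Ifit3 (chr19:34583279-34583528, plus strand) holds 2 matches, which begin 156 and 122 bases before the start, and that of Gbp2 (chr3:142620413-142620662, plus strand) holds 1, which begins 59 bases before it.
Ifit3: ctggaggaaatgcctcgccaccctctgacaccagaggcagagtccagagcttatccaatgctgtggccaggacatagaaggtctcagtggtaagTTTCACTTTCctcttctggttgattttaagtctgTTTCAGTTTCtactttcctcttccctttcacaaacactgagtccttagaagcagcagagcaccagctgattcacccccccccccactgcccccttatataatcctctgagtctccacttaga
Gbp2: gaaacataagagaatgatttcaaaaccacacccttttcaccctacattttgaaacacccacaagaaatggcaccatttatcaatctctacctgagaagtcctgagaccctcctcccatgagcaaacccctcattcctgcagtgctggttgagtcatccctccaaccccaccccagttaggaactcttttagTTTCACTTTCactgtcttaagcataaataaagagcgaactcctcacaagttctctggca
Of the interferon-stimulated genes that were separated lower, 7 have an entry in the table and 2 of them (28.6%) hold the letters, against 5 of 13 (38.5%) of the other measured members. These shares count a gene if any of its windows holds the letters, as do 218 of the 6709 genes tested that have an entry (3.25%). Counted by window, 978 of all 32851 (2.98%) hold them. By these counts the separated members did not hold the letters in a larger share than the rest of the list.

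Genes of MHC class II accompanied the interferon-stimulated genes. Of 15 genes of antigen presentation 4 were separated lower and 0 higher (median -0.36, and -0.20 without SIRT1tg array 1), all 4 of the class II pathway. H2-Ab1, a class II β chain, was at 9.70, 9.47 and 9.30 on the SIRT1tg arrays and 10.19, 10.11 and 9.84 on the WT arrays (-0.56) and Cd74, the invariant chain, at 10.03, 9.70 and 9.68 on the SIRT1tg arrays and 10.54, 10.25 and 10.04 on the WT arrays (-0.47). H2-Eb1 and H2-DMa differed by -0.46 and -0.46. The class I genes H2-K1 (-0.08) and H2-D1 (0.25) were not separated, while 12 of the 15 differences of the list were negative. The mean signal of the list was -0.14, -0.03 and -0.17 on the SIRT1tg arrays and 0.35, 0.15 and -0.17 on the WT arrays. On that mean the genotypes overlapped, with WT array 1 the highest.

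Macrophage markers were lower in every one of the 19 measured genes, and 12 of them were separated (63.2% of the list, against 11.8% of all genes), with a median of -0.62. C1qb, a chain of complement C1q made by tissue macrophages, was at 7.09, 7.22 and 7.03 on the SIRT1tg arrays and 8.93, 7.91 and 7.92 on the WT arrays (-1.14). Lyz2, the macrophage lysozyme, was at 8.14, 7.77 and 7.59 on the SIRT1tg arrays and 9.63, 8.53 and 8.58 on the WT arrays (-1.08), and its second probe gave -0.27. Laptm5, a lysosomal protein of blood cells, was at 9.05, 9.06 and 8.81 on the SIRT1tg arrays and 10.32, 9.67 and 9.48 on the WT arrays (-0.85). WT array 1 was the highest array in each of the 3. The mean signal of the list was -0.29, -0.24 and -0.44 on the SIRT1tg arrays and 0.89, 0.14 and -0.06 on the WT arrays, so the genotypes did not overlap but 1 WT array stood far above the rest. Without it the median was -0.40. The defining marker Adgre1 differed by -0.27 with its brightest probe, which was not separated, and by -0.67 with a second probe detected on all 6 arrays. That probe was separated, at 5.16, 5.25 and 5.25 on the SIRT1tg arrays and 6.90, 5.45 and 5.31 on the WT arrays, with WT arrays 2 and 3 close to the SIRT1tg arrays. Of 16 chemokines 4 were separated lower and 1 higher (median -0.42), and without WT array 1 the median was -0.12. That median also depended on the detection filter. It was -0.01 when detection on all 6 arrays was required and -0.08 with no filter, so the list as a whole has no settled difference. Cxcl13, which attracts B cells, was at 5.23, 4.88 and 4.41 on the SIRT1tg arrays and 7.10, 5.87 and 5.34 on the WT arrays (-1.26), and Cxcl16, a membrane-bound chemokine, at 4.91, 5.58 and 4.93 on the SIRT1tg arrays and 6.33, 5.61 and 5.77 on the WT arrays (-0.76). Ccl4 was detected on none of the SIRT1tg arrays and on all WT arrays, where its signal was at least 1.56-fold higher, as a lower bound set at the lowest detected signal of each SIRT1tg array. It passed the detection filter through the WT arrays alone, so its place among the 4 separated lower chemokines is not independent of that filter.

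Genes of fibroblasts and the interstitial matrix were lower as well. All 19 measured were negative and 10 were separated lower (52.6%), with a median of -0.53. Col1a1, a chain of type I collagen, was at 5.48, 5.62 and 5.36 on the SIRT1tg arrays and 6.78, 6.27 and 5.97 on the WT arrays (-0.85) and Col6a2, of type VI collagen, at 5.65, 5.68 and 5.87 on the SIRT1tg arrays and 7.03, 6.27 and 6.38 on the WT arrays (-0.83). Sparc, a matrix protein and one of the brightest of the list, was at 10.76, 11.08 and 11.12 on the SIRT1tg arrays and 11.38, 11.64 and 11.32 on the WT arrays (-0.46), while the proteoglycan Dcn differed by -0.26 and Col3a1 by -0.12 without separation. WT array 1 was again the highest for both collagens, though the highest Sparc signal was that of WT array 2. The list's mean signal was -0.28, -0.11 and -0.33 on the SIRT1tg arrays and 0.49, 0.28 and -0.05 on the WT arrays, and its median without WT array 1 was -0.39. Of the TIMPs, inhibitors of matrix proteases, Timp2 was lower at 8.01, 7.85 and 7.61 on the SIRT1tg arrays and 8.59, 8.85 and 8.26 on the WT arrays (-0.74). Timp1 was also separated lower (-0.77). Timp4 was higher at 8.0, 8.22 and 8.26 on the SIRT1tg arrays and 7.71, 7.47 and 7.61 on the WT arrays (0.56). The list of TIMPs and matrix metalloproteinases had 1 of 15 separated higher and 2 lower (median -0.12, and -0.01 without SIRT1tg array 1). The macrophage, interferon, MHC and chemokine lists all had their highest mean signal on WT array 1 and the next highest on WT array 2. The order of the other arrays differed between these lists. The part of the macrophage signal in the interferon, MHC and chemokine lists was not tested.

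**Figure D3:**
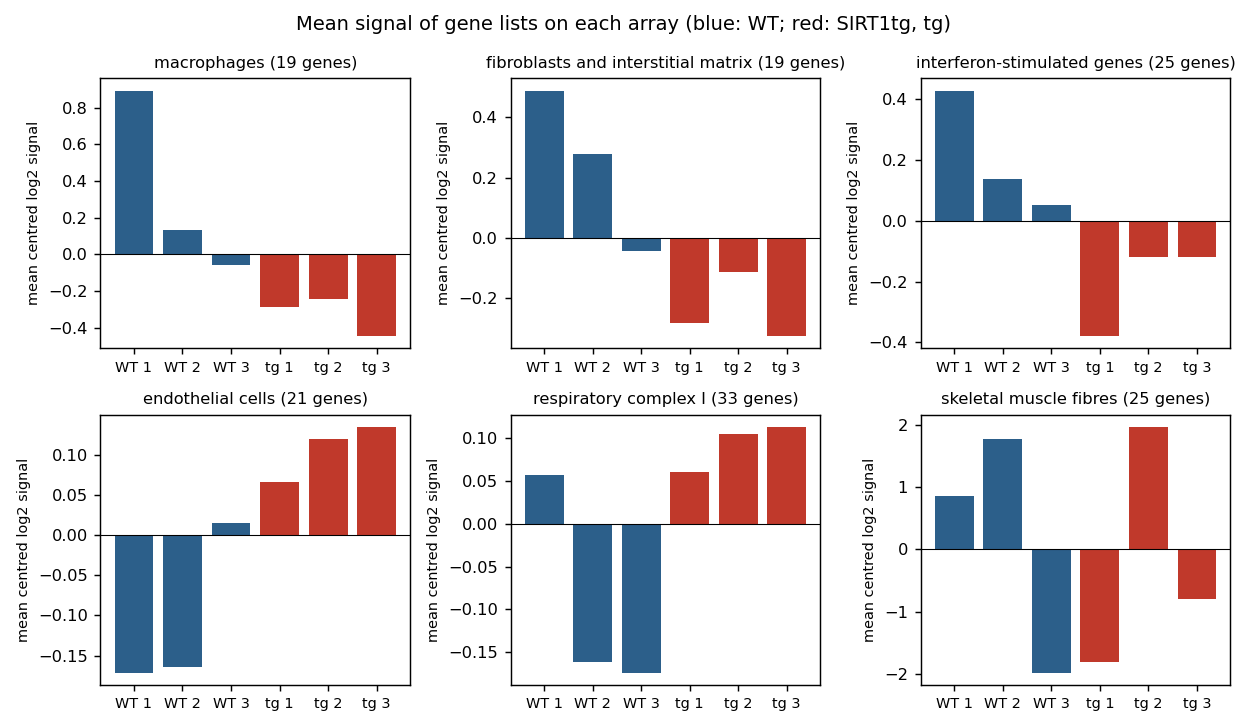
Mean over the genes of 6 lists of the log2 signal centred on the 6 arrays (y axis, with its own range in each panel), for WT arrays 1 to 3 (blue) and SIRT1tg arrays 1 to 3 (red). Macrophage, fibroblast and interferon lists are lower on all SIRT1tg arrays, with WT array 1 the highest (0.89, 0.49 and 0.43). The muscle list spans from -1.98 to 1.96 with both genotypes at both ends.

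Skeletal muscle genes varied more than any other list, and not by genotype. The mean signal of 25 muscle genes was -1.81, 1.96 and -0.80 on the SIRT1tg arrays and 0.86, 1.77 and -1.98 on the WT arrays. Acta1, skeletal α-actin, was at 5.03, 11.79 and 8.47 on the SIRT1tg arrays and 10.98, 11.71 and 4.33 on the WT arrays. SIRT1tg array 2 and WT array 2 were highest, SIRT1tg array 1 and WT array 3 lowest, and 0 of the 25 genes were separated. With the muscle signal as a covariate, an alternative added after the data were examined, 5 genes were called, namely the 4 above and Zxda. The medians of the macrophage, fibroblast and interferon lists were then -0.60, -0.51 and -0.42. Other cell types had few detected genes. Of 17 lymphocyte genes 5 were measured and none separated, with 4 of the 5 negative (median -0.37). Of 13 granulocyte and mast cell genes 5 were measured and none separated, with all 5 negative (median -0.29). With no filter on detection these medians were -0.04 and -0.01. Krt14, Alb and Ms4a1, markers of epithelium, liver and B cells, were detected on 0 of 6 arrays. Smooth muscle and pericyte genes had 1 of 12 separated higher, and basement membrane genes 2 of 12 higher and 1 lower.

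The remaining lists were mixed. Proteasome genes had 1 of 32 separated higher and 6 lower (median -0.10, and -0.06 without WT array 2), with differences in single subunits such as Psmc3 (-0.41) and Psma7 (-0.33). DNA replication and cell cycle genes had 3 of 13 lower and 0 higher (median -0.17, and -0.10 without WT array 1). Mcm4, a subunit of the replicative helicase, was at 6.64, 6.81 and 6.84 on the SIRT1tg arrays and 7.35, 7.33 and 7.40 on the WT arrays (-0.59; adjusted p = 0.152, limma), with each genotype within 0.2. Antioxidant and NRF2 target genes had 4 of 20 in each direction, of which catalase (Cat), the peroxisomal enzyme that breaks down hydrogen peroxide, was at 9.75, 9.71 and 9.76 on the SIRT1tg arrays and 9.32, 9.26 and 9.05 on the WT arrays (0.53). Targets of p53 and FOXO proteins had 2 of 16 higher and 3 lower, with Ccng2, a cyclin induced by FOXO proteins, at 7.95, 8.22 and 8.12 on the SIRT1tg arrays and 7.93, 7.15 and 7.08 on the WT arrays (0.71). Insulin signalling had 2 of 16 higher and 0 lower, autophagy and lysosome 4 of 22 higher and 0 lower, endoplasmic reticulum stress 2 of 20 higher and 3 lower, and cytosolic ribosomal proteins 2 of 28 higher and 3 lower. Secreted factors and genes of white fat, which include Sncg and Npr3, had 1 of 13 higher and 4 lower (median -0.45, and -0.13 without WT array 2).

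**Figure D4:**
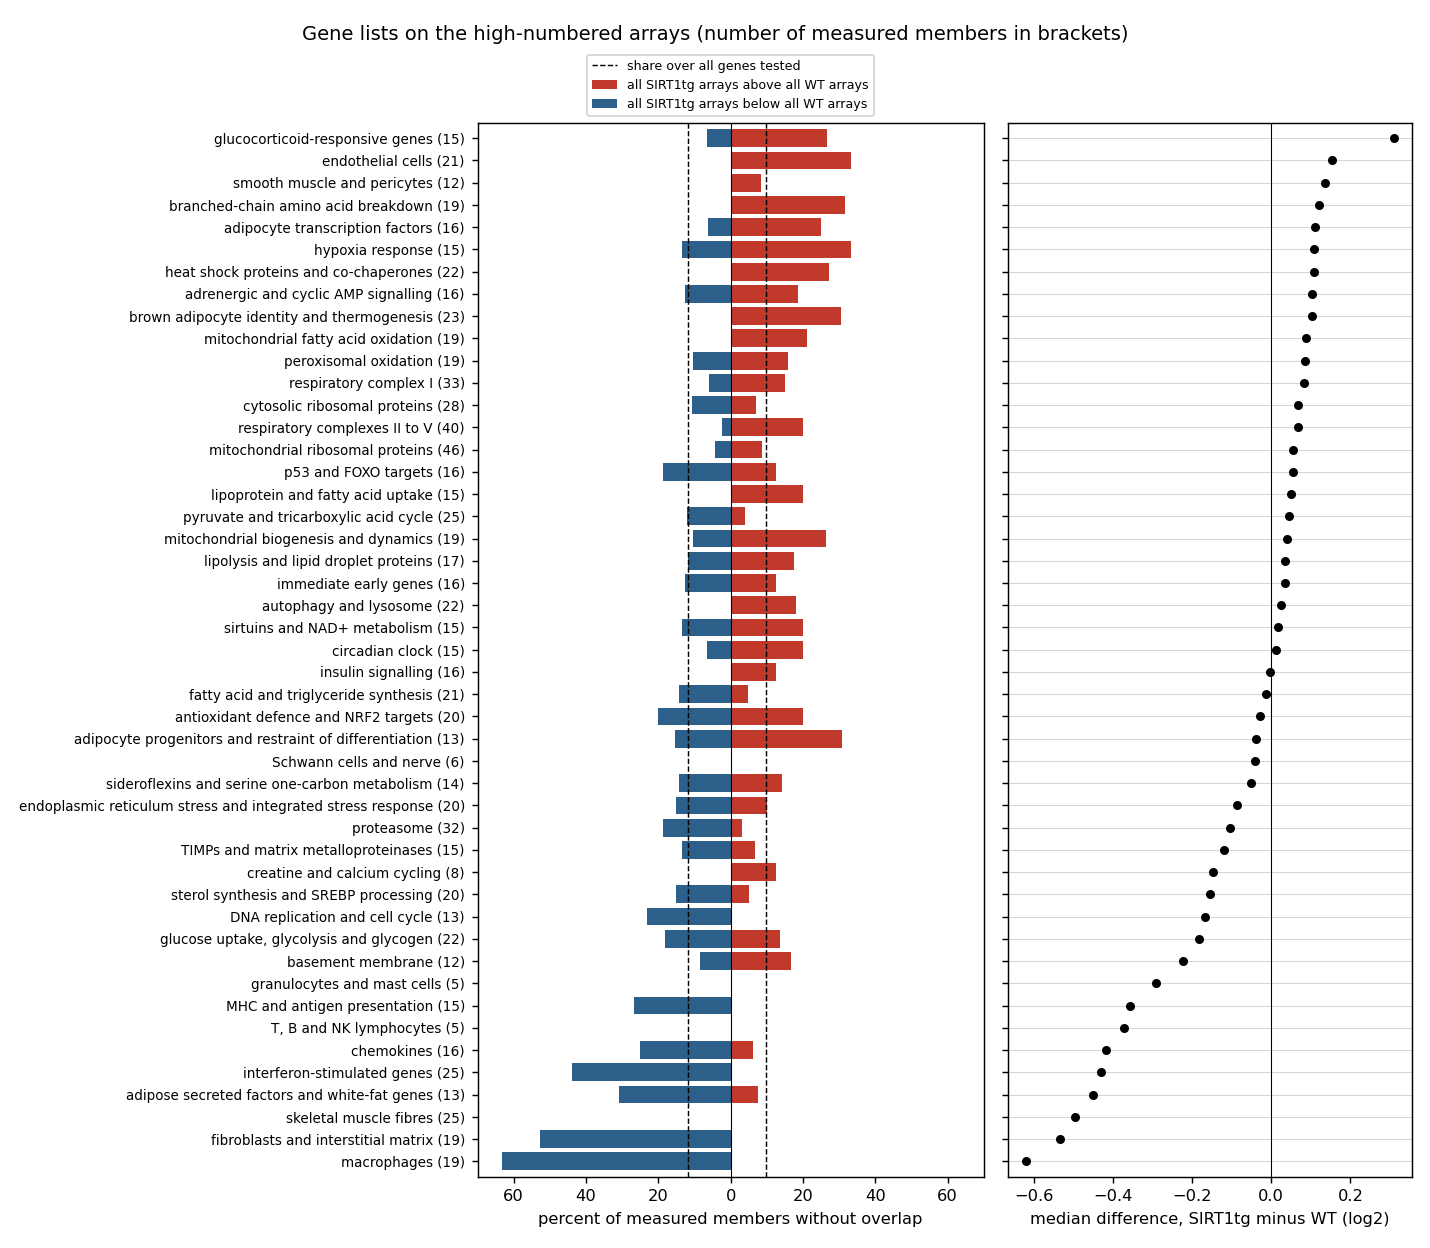
Left, the percent of the measured members of each gene list that were separated higher (red, to the right) or lower (blue, to the left) in SIRT1tg, with dashed lines at the shares of all genes (9.79% and 11.8%). Right, the median SIRT1tg minus WT difference (log2) of the list. Macrophage, fibroblast and interferon lists reach 63.2%, 52.6% and 44% on the lower side, and the muscle list has no separated gene although its median is -0.50.

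To see where the genotype difference of these arrays departed from that of the 6 low-numbered arrays (3 SIRT1tg and 3 WT), the interaction of genotype and number range was tested on all 12 arrays. Of 8035 genes 1 passed an adjusted p of 0.05 (0.0124%; limma), and 592 had an unadjusted p under 0.05 (7.37%). The gene that passed was Slc4a1, the band 3 anion exchanger of red cells. Its high-range signal was 6.21, 5.79 and 6.14 on the SIRT1tg arrays and 5.22, 4.95 and 4.67 on the WT arrays, and on the low-numbered arrays it was 4.64, 4.69 and 4.60 in SIRT1tg and 5.34, 5.72 and 5.24 in WT. The genotypes were separated in opposite directions in the 2 ranges, with a difference of 1.11 in the high range, -0.79 in the low range and 1.90 ± 0.24 (SE) between them (adjusted p = 0.0264, limma). That call was lost without SIRT1tg array 1 or 3 or without WT array 2 or 3, where the difference between ranges was 1.76 to 1.89. The other red-cell genes named here were higher in SIRT1tg on the high-numbered arrays as well, but not all were separated. The red-cell list, with 4 measured genes including Slc4a1, had a median of 0.43 there, all 4 positive, and of -0.17 in the low range. Hbb-bt, a β-globin gene that is not in this list, was at 9.80, 9.52 and 10.22 on the SIRT1tg arrays and 9.33, 8.48 and 7.97 on the WT arrays (1.26). Within the list Car2 differed by 0.44, whereas Alas2, the heme synthesis enzyme of red cells, differed by 0.41 and Hba-a1, an α-globin gene, by 0.23 without separation. Globin genes have near-identical copies whose probes may share signal. The part of residual blood in these values was not tested.

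Next to Slc4a1, the genes with the smallest p for a more positive genotype difference in the high range were Dhrs4 (0.78 in the high and -0.60 in the low range, a retinal reductase), Crip2 (0.53 and -0.60, a LIM-domain protein), Cox6b2 (0.20 and -0.63, an isoform of a cytochrome c oxidase subunit) and Slc6a6 (0.50 and -0.39, the taurine transporter), all from the fit over 12 arrays. Those for a more negative one were Amotl2 (-0.39 and 0.63, a protein of cell junctions), Zcwpw1 (-0.24 and 0.48, a histone reader), Ilk (-0.27 and 0.31, integrin-linked kinase), Ccn2 (-0.29 and 1.05, connective tissue growth factor) and Aacs (-0.52 and 1.15, an enzyme that turns acetoacetate into acetoacetyl-CoA for lipid synthesis). None of them passed the adjusted threshold of the range test.

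The called genes can be set beside the low range. Sirt1 differed by 1.24 there and Sfxn1 by -3.18, the latter with the probe that was brightest over 12 arrays, which gave -2.54 in the high range. Ccnl1 and Gramd1b differed by 0.24 and 0.36 in the low range, where both overlapped. The interaction of Ccnl1 had an unadjusted p of 0.00439 and an adjusted p of 0.579 (limma), so that a difference between ranges was not established. Dlk1 (1.36), Nampt (0.78) and Ppargc1a (1.19) were separated higher in the low range too, whereas Ucp1 (-0.16), Mmd2 (-0.22) and Vegfa (0.03) overlapped there. Over the 8035 genes measured in both ranges, 137 of the 799 separated higher in the high range (17.1%, and 22.8% of those in the low range) were also separated higher in the low range, where 7.48% of all genes were. Another 28 (3.5%) were separated in the opposite direction. Of the 950 separated lower, 118 (12.4%, and 18.4% of those in the low range) were so in the low range as well, against 8% of all genes, and 26 (2.74%) were opposite. Most genes that separated the genotypes on the high-numbered arrays thus did not do so on the others. The list medians in the low range were -0.29 for interferon-stimulated genes, -0.41 for macrophages, -0.43 for fibroblasts, 0.14 for endothelial genes and 0.01 for brown-fat identity, beside -0.43, -0.62, -0.53, 0.15 and 0.10 in the high range. The mean macrophage signal in the low range was 0.06, -0.44 and 0.22 in SIRT1tg and -0.27, 0.06 and 0.93 in WT. On that mean the genotypes overlapped in the low range, with 1 WT array far above the rest. Those of the interferon and fibroblast lists did not overlap there.

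**Figure D5:**
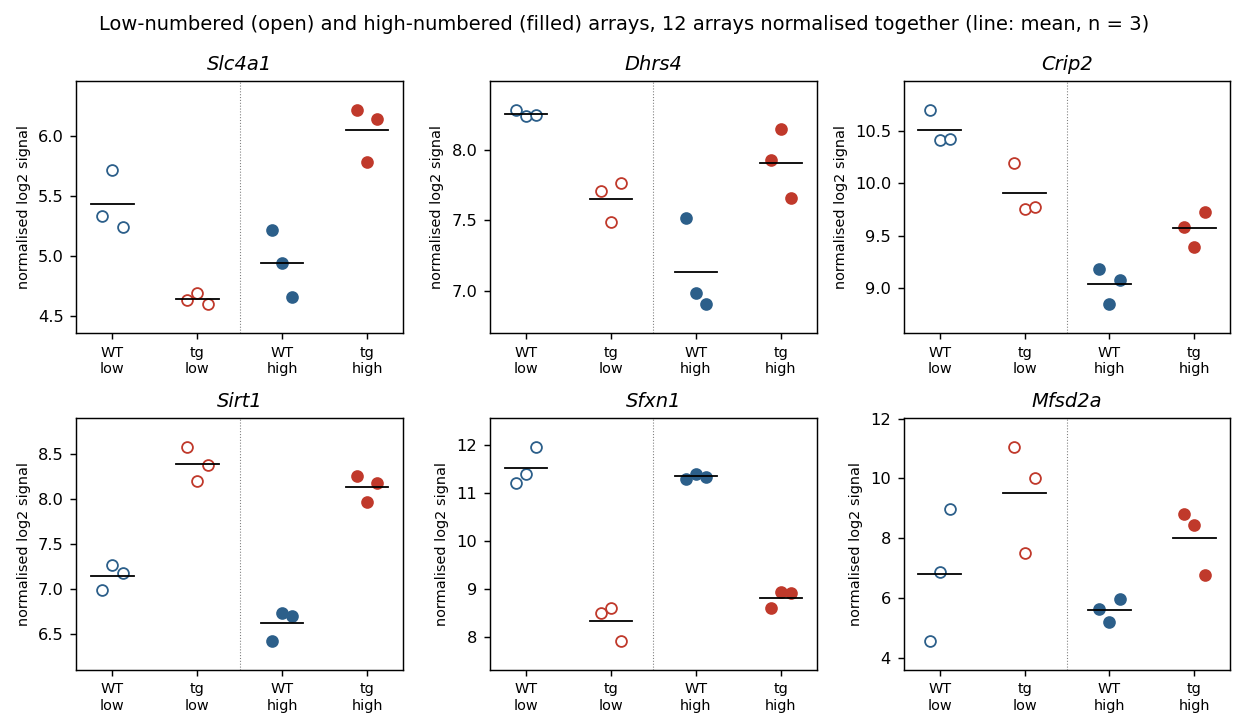
Normalised log2 signal (y axis) of 6 genes on the 12 arrays, normalised together, by genotype and number range (open circles low, filled circles high, horizontal line the mean of 3 arrays). Slc4a1, Dhrs4 and Crip2 are separated in opposite directions in the 2 ranges, Sirt1 and Sfxn1 in the same direction in both, and Mfsd2a overlaps in the low range only.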

How the data were processed

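RNA of brown adipose tissue was analysed from the 3 SIRT1tg and 3 WT samples in the high-numbered columns of the deposited non-normalised table. Its bead signals are deposited as linear intensity, and the deposited file gives a detection p-value beside each signal. The submitters' processing notes name GenomeStudio. Columns name the genotype and a number but no replicate, so each served as a replicate of its group. A further deposited table, of processed values, was not used here, since its columns carry replicate numbers that cannot be tied to the column numbers.

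The 6 arrays were background-corrected and quantile-normalised on their own by neqc (limma 3.58.1, R 4.3.3), which uses the detection p-values and an offset of 16. The offset compresses differences of dim genes. One gene symbol was given by the platform annotation for 23978 of the 25697 probes and none for 1719. Through gene identifiers 23962 probes matched the RefSeq gene table, and 0 symbols changed. A probe was kept if its detection p was under 0.05 on 3 or more arrays (11627 probes, 10968 with a symbol). The probe with the highest mean signal stood for its gene, which gave 8191 genes, 2052 of them with further detected probes. Genotypes were compared with lmFit and eBayes without covariates and with Benjamini-Hochberg adjustment over all 8191 genes at a threshold of 0.05, and every adjusted p is from limma. Number ranges were compared by the interaction of genotype and range over the 12 arrays normalised together (8035 genes, detected on 6 or more arrays). Precision is limited by the number of arrays. The code was tested on simulated data.

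The gene lists (50, with 5 or more measured genes in 47) are described by counts and medians. The arrays, the lists and the rule for named genes were chosen with earlier results of these data known. The rule took Sirt1, every called gene, the 15 largest separated differences and the 5 smallest p of the range test per direction, up to 4 separated members per list, the 2 brightest markers per cell type and 9 anchor genes. Other list members were named after their values were seen. Alternatives covered background correction, normalisation, filter, probe choice, variance prior and each array left out. Median scaling on the genes tested and the muscle covariate were added with the data in view.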

Additional observations from a re-analysis of the deposited data

Results flagged for a closer look

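Slc4a1 (band 3, the anion exchanger of red cells) was the 1 result whose genotype difference differed between the number ranges by a test of that difference. It was 1.11 higher in SIRT1tg on the high-numbered arrays and -0.79 on the low-numbered ones, a difference between ranges of 1.90 on the log2 scale (adjusted p = 0.0264 over 8035 genes, limma). All 3 SIRT1tg arrays lay above all 3 WT arrays in the high range and below them in the low range. With groups of 3 arrays, no test for a single outlying array was made.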

How the results depend on the processing

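The 4 calls became 3 with normexp at offset 50, under median scaling and with no filter on detection, 2 without background correction and with the spread shared over all 12 arrays, 15 with a robust trended prior, and 5 with every probe on its own or the muscle covariate. Leaving out 1 array gave 1 to 69 calls, with 69 (65 higher, 4 lower) without WT array 1, 1 without SIRT1tg array 1, and 2 without SIRT1tg array 3 or WT array 2. Sfxn1 was among the calls in every alternative run, and Sirt1 in all but those without SIRT1tg array 1 or 3, its difference ranging from 1.41 to 1.60 as arrays were left out. Separated genes numbered 268 higher and 1864 lower under median scaling, so that 12.6% of them were higher instead of 45.4%, and 871 and 865 with median scaling on the genes tested. With no filter, which tests more genes, they numbered 1251 and 1431. With fewer arrays, separation is easier: 1027 to 1357 genes were higher and 1318 to 1782 lower. Under median scaling the medians relative to that of all genes were -0.58 for macrophages, -0.55 for fibroblasts, -0.43 for interferon-stimulated genes and 0.15 for endothelial genes. Without background correction the medians shrank to -0.27, -0.31, -0.20 and 0.13 for the same 4 lists. The 1 call of the range test became 0 with normexp at offset 50 (Slc4a1 0.91), without background correction (0.62) and with no filter (1.90), and 0 to 2 as arrays were left out (Slc4a1 1.76 to 2.03; 2 without WT array 1). Genes that had not been called changed sign as follows. Pparg was -0.18 under median scaling, -0.028 with median scaling on the genes tested, -0.0059 with array weights, -0.015 with the muscle covariate and -0.11 to 0.10 as arrays were left out. Cidea (-0.075) and Elovl3 (-0.089) did so under median scaling, Elovl3 also as arrays were left out (-0.078 to 0.16), and Acta1 with the muscle covariate (0.23) and as arrays were left out (-2.90 to 1.14). The cause was not tested. Fits with cyclic loess, array weights, stricter or looser detection, the mean of a gene's probes or normalisation on 12 arrays kept 4 calls, which were the 4 named genes. No paired analysis was possible because the array columns carry no replicate number of the labels. Probes near background limit the dim genes, whose differences shrink with a larger offset.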

Other observations

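Genes of adrenergic and cyclic AMP signalling, the pathway by which nerves switch brown fat on, had 3 of 16 members with all SIRT1tg arrays above all WT arrays and 2 below (median 0.10), against 9.79% and 11.8% of all genes. Adcy4, an adenylyl cyclase, was at 8.43, 8.51 and 8.48 on the SIRT1tg arrays and 7.90, 7.74 and 8.10 on the WT arrays (0.56 on the log2 scale), and further probes of it gave 0.38 and 0.48. Gnas, which encodes the stimulatory G protein α subunit, was at 11.13, 10.93 and 11.16 on the SIRT1tg arrays and 10.83, 10.34 and 10.52 on the WT arrays (0.51). Crtc3, a coactivator of CREB, was lower, at 5.12, 5.09 and 5.11 on the SIRT1tg arrays and 5.33, 5.6 and 5.53 on the WT arrays (-0.38). The arrays of each genotype lay within about 0.5 of each other in all 3 genes. None passed the adjusted threshold.

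Lipoprotein and fatty acid uptake had 3 of 15 genes higher and 0 lower (median 0.05), among them Lmf1, which matures lipoprotein lipase, at 8.87, 8.70 and 8.88 on the SIRT1tg arrays and 8.47, 8.4 and 8.22 on the WT arrays (0.46), and Lrp1, a lipoprotein receptor, at 6.71, 5.87 and 5.94 on the SIRT1tg arrays and 5.66, 5.64 and 5.01 on the WT arrays (0.74). SIRT1tg array 1 was the highest for Lrp1 and WT array 3 the lowest. Lipid droplet and lipolysis genes had 3 of 17 higher and 2 lower (median 0.04). Aqp7, the glycerol channel of fat cells, was at 9.95, 9.58 and 9.70 on the SIRT1tg arrays and 9.41, 9.06 and 9.49 on the WT arrays (0.42), and further probes gave 0.32, 0.06 and 0.56. Plin5, a droplet protein that contacts mitochondria, differed by 0.35, but a second probe gave -0.005. Hilpda lay on the other side. Peroxisomal oxidation had 3 of 19 higher and 2 lower (median 0.08), the pyruvate and tricarboxylic acid cycle 1 of 25 higher and 3 lower (median 0.04), and mitochondrial biogenesis and dynamics 5 of 19 higher and 2 lower (median 0.04).

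Of 16 immediate early genes 2 were higher and 2 lower. Junb, a component of the AP-1 transcription factor, was at 6.06, 6.15 and 6.19 on the SIRT1tg arrays and 6.77, 6.71 and 6.41 on the WT arrays (-0.50), and it differed by -0.91 on the low-numbered arrays, where the genotypes did not overlap either. Creatine and calcium cycling had 1 of 8 genes higher, and genes of Schwann cells and nerve had 0 of 6 in either direction. The positive medians of the lists above turned negative under median scaling, where that of all genes moved from -0.02 to -0.15, and stayed positive under the other scalings run. As single arrays were left out they ranged from 0.05 to 0.18 for cyclic AMP signalling, from -0.01 to 0.08 for uptake and for lipolysis, from 0.03 to 0.11 for peroxisomal oxidation, from 0.02 to 0.07 for the tricarboxylic acid cycle and from -0.03 to 0.10 for mitochondrial biogenesis.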
